A study of Mus musculus with 5 samples.

Results

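The axon guidance ligands and receptors comprised 74 gene entries of 22380 protein-coding genes in the mouse NCBIM37 (mm9) annotation, and 37 of 2849 *Paupar* peaks lay in their regulatory domains. Members were taken by symbol: semaphorins, plexins, neuropilins, ephrins, Eph receptors, slits, roundabout (Robo) receptors, netrins and the netrin receptors *Dcc*, *Neo1* and *Unc5a* to *Unc5d*. The 74 entries carry 72 symbols, because *Efna5* and *Ntng1* each have 2 gene identifiers. A regulatory domain covered 5 kb before and 1 kb after the annotated gene start and was extended on each side to the next gene's interval of that kind, at most 1 Mb, and a peak was assigned by its midpoint.

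The study mapped where *Paupar*, a long non-coding RNA transcribed near *Pax6*, is found on chromatin in N2A cells, a mouse neuroblastoma line. In CHART-seq, biotinylated DNA oligonucleotides capture an RNA with its attached chromatin, RNase H releases the complexes, and the recovered DNA is sequenced. There were 2 *Paupar* pull-downs, 2 control pull-downs with an *Escherichia coli* LacZ oligonucleotide, and 1 input DNA sample, all from untreated cells of the 1 line. The data are a single list of peaks found against both controls, each with a position and a score whose statistic is not given, and with no value for any one library. Spread between the pull-downs, sequencing depth and the identity of the cells by their markers could therefore not be examined, and counts are given with 95% intervals that cover counting error only.

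Axon guidance proteins steer growing nerve processes by attraction and repulsion. Secreted class 3 semaphorins signal through neuropilins, which bind the ligand, and class A plexins, which carry the signal into the cell, whereas most other semaphorins bind plexins directly. Ephrins on one cell engage Eph receptor tyrosine kinases on another, slits repel axons through Robo receptors, and netrins attract through DCC and neogenin or repel through UNC5 receptors.

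Peaks fell in the domains of 22 of 74 members, 29.7% (Wilson 95% interval 20.5 to 40.9%), beside 16.4% of all protein-coding genes. Of these 22 members, 14 held 1 peak, 4 held 2, and 4 held 3 or more, namely *Plxna4* with 5, *Nrp1* with 4, and *Nrp2* and *Plxna2* with 3 each. Among all protein-coding genes 1.66% held 3 or more. The members' domains were long, with a median of 223 kb beside 89.4 kb for all genes. Per unit length the members held 37 peaks in 40.1 Mb or 0.923 peaks per Mb (exact Poisson 95% interval 0.650 to 1.27), beside 1.13 per Mb (1.08 to 1.17) in the domains of all genes, and the members' interval spans the value for all genes.

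**Figure D1:**
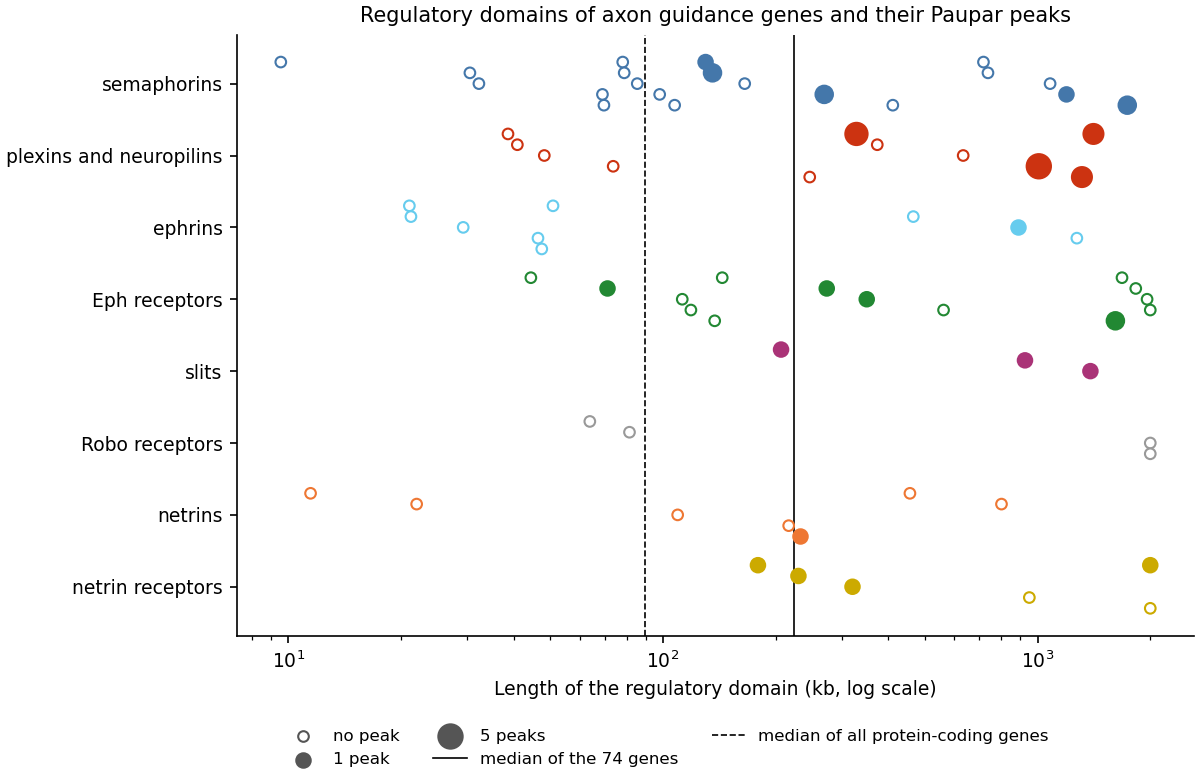
Length of the regulatory domain (kb, log scale) of each of the 74 gene entries, by family. Filled circles are entries with a peak, sized by the number of peaks, and open circles have none. The solid line is the median of the 74 entries (223 kb) and the dashed line that of all protein-coding genes (89.4 kb). Of the 24 entries to the left of the dashed line, 1 has a peak.

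All genes were split by domain length into 4 classes of equal size, with bounds at 40.2, 89.4 and 213 kb. The share with a peak was higher in each longer class in both sets. It was 4.54% of all genes and 0 of 9 members in the shortest class. In the second class it was 9.33% of all genes and 1 of 15 members, and in the third 18.1% and 4 of 12. In the longest class it was 33.7% of all genes and 17 of 38 members, 44.7% (30.1 to 60.3%). Within each class the members' interval included the share of all genes. The longest class took 38 of the 74 members.

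Within the longest class, peaks were denser where the domain was richer in G and C. All genes held 0.388 peaks per Mb in domains under 40% GC, 1.20 at 40 to 45% and 1.99 above 45%. Members held 0.296 (0.119 to 0.611), 1.82 (1.08 to 2.88) and 1.46 (0.534 to 3.17) in the same bands. Under 40% GC, 5 of 16 members held a peak, 31.25% (14.2 to 55.6%), beside 20.4% of all genes. These were *Epha3*, *Sema3d*, *Sema6d*, *Slit2* and *Unc5d*. All peaks of *Epha3* and *Sema3d* were simple repeats, described below, and without such peaks these members would not count here. The share of all genes in this band was not computed without such peaks. Whether GC content bears on which members held a peak was not tested. The middle band holds *Plxna4*, *Nrp1*, *Nrp2* and *Plxna2*, whose domains have 43.7, 42.1, 40.9 and 41.4% GC.

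**Figure D2:**
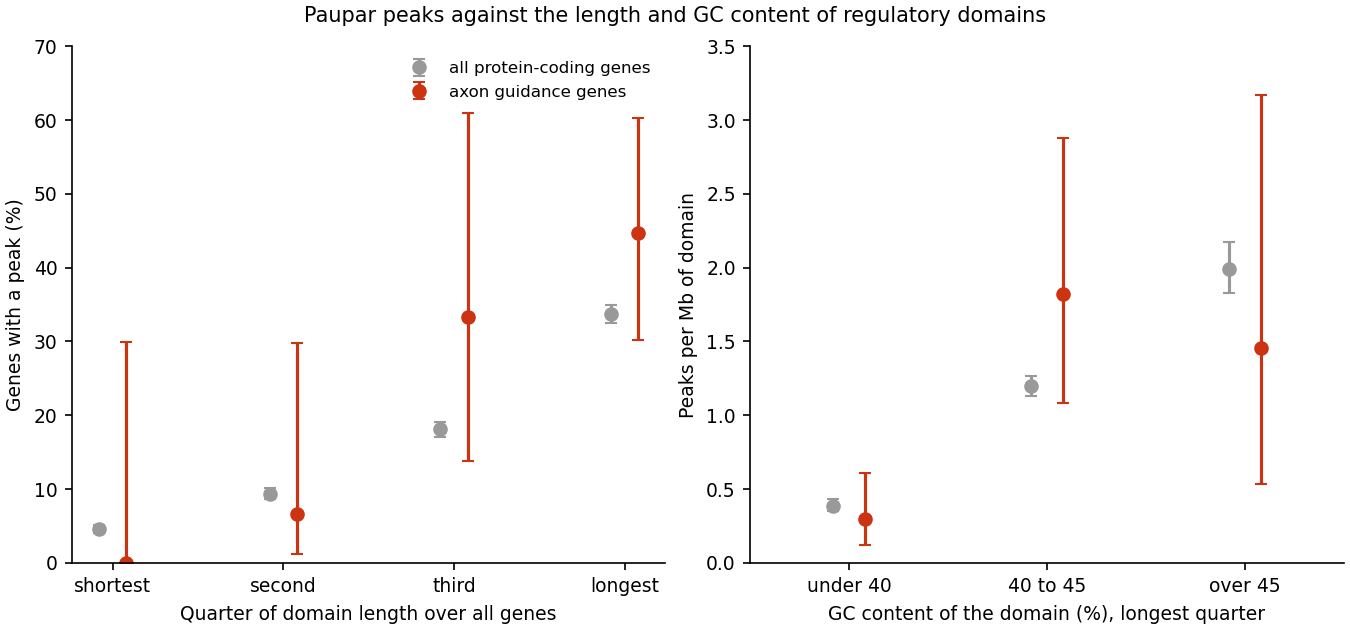
Left, percent of genes with a peak in each of the 4 classes of domain length, for all protein-coding genes (grey) and the axon guidance genes (red), with Wilson 95% intervals. Right, peaks per Mb in the longest class by GC content of the domain, with exact Poisson 95% intervals. The red intervals include the grey points in all 7 classes shown.

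Plexins and neuropilins, the semaphorin receptors, held the most peaks of the 8 families, 15 in 5.52 Mb or 2.72 per Mb (1.52 to 4.49). All genes held 1.13 per Mb. All 15 peaks lay at 4 of the 11 genes, 36.4%, beside 16.4% of all genes. The domains of this family had a median of 329 kb, beside 89.4 kb for all genes. The remaining 63 members held 22 peaks in 34.6 Mb, 0.636 per Mb (0.399 to 0.963). The family was singled out after its count was seen, so its difference from the others was not tested.

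The domains of both neuropilins held peaks, 7 in 1.74 Mb or 4.03 per Mb (1.62 to 8.29), beside 1.13 per Mb for all genes. Neuropilins belong to the family singled out above, so this difference was not tested either. *Nrp1* (chromosome 8, domain 329 kb), a co-receptor for class 3 semaphorins and for VEGF, had a pair of peaks in its introns 2257 bp apart, at 35.6 and 38.6 kb downstream of the start, with scores of 14.13 and 19.12. Its other peaks lay beyond the gene, at 152 and 283 kb, with scores of 8.35 and 6.44. All of them also lay in the domain of *Itgb1*, an integrin subunit gene whose start is 43668 bp from the farthest. On chromosome 8 as a whole 28.1% of genes held a peak and domains held 2.30 peaks per Mb, above the values for the genome.

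*Nrp2* (chromosome 1, domain 1410 kb), the other neuropilin, had a peak of 201 bp and score 16.38 at 768 bp upstream of its start. This was 1 of only 2 members with a peak between 5 kb upstream and 1 kb downstream of the start, beside 1.71% of all genes. Its other peaks, 154 and 837 kb upstream with scores of 8.12 and 18.08, lay in introns of *Pard3b*, a polarity gene. The start-proximal peak is shown whole because it is the peak closest to a member's start. Capitals mark an 11 bp match to the paired-domain site of PAX6 on the minus strand with 2 mismatches.
Nrp2 peak, chr1:62748991-62749191, mm9, + strand: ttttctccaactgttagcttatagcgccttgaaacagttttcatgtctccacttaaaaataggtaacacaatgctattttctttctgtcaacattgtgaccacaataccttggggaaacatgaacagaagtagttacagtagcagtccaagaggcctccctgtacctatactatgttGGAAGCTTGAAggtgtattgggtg

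Of the class A plexins, 2 of 4 held peaks, 8 in all, beside 16.4% of all genes with a peak. *Plxna4* (chromosome 6, domain 1008 kb) had peaks at 154, 243 and 383 kb downstream of the start in its introns, at 479 kb past the end of the gene, and at 109.9 kb upstream. Their scores ran from 6.64 to 13.59, beside a median of 12.69 over all peaks. *Plxna2* (chromosome 1, domain 1314 kb) had peaks of score 20.02, 14.02 and 16.74 at 886, 866 and 683 kb upstream. All 3 were intergenic, and the nearest gene start was that of *Camk1g*, a calmodulin-dependent kinase. *Plxna1* and *Plxna3* had none, nor did any of the 5 plexins of classes B to D, whose domains summed to 1.04 Mb, where a count of 0 allows up to 2.88 per Mb. Such a limit, here and for other counts of 0, is 3 counts over the summed length.

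Semaphorins, the ligands of these receptors, held 8 peaks at 5 of 20 genes, 25% beside 16.4% of all genes. Their density was 1.11 per Mb (0.477 to 2.18), beside 1.13 for all genes, and their domains had a median of 119 kb. Among the secreted class 3 members 1 of 7 held a peak, *Sema3d*, in an intron 98.4 kb into the gene (score 18.61). *Sema4d*, a transmembrane ligand of plexin B receptors, held the second-highest scoring peak of the set, 35.76, at 22.2 kb upstream, which also lay in the domain of *Gadd45g*, and a weaker one of 8.14 at 48.0 kb in an intron. *Sema6d* held peaks of 19.72 at 137 kb in an intron and 8.01 at 778 kb upstream. *Sema5b* held adjacent intronic peaks 612 bp apart, at 103 and 104 kb, with scores of 25.09 and 8.18. *Sema4c* held 1 of the 3 widest peaks, at 62.6 kb upstream within *Fam178b*, with a score of 15.80. The other 15 semaphorins had none, namely *Sema3a*, *3b*, *3c*, *3e*, *3f* and *3g*, *Sema4a*, *4b*, *4f* and *4g*, *Sema5a*, *Sema6a*, *6b* and *6c*, and *Sema7a*.

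**Figure D3:**
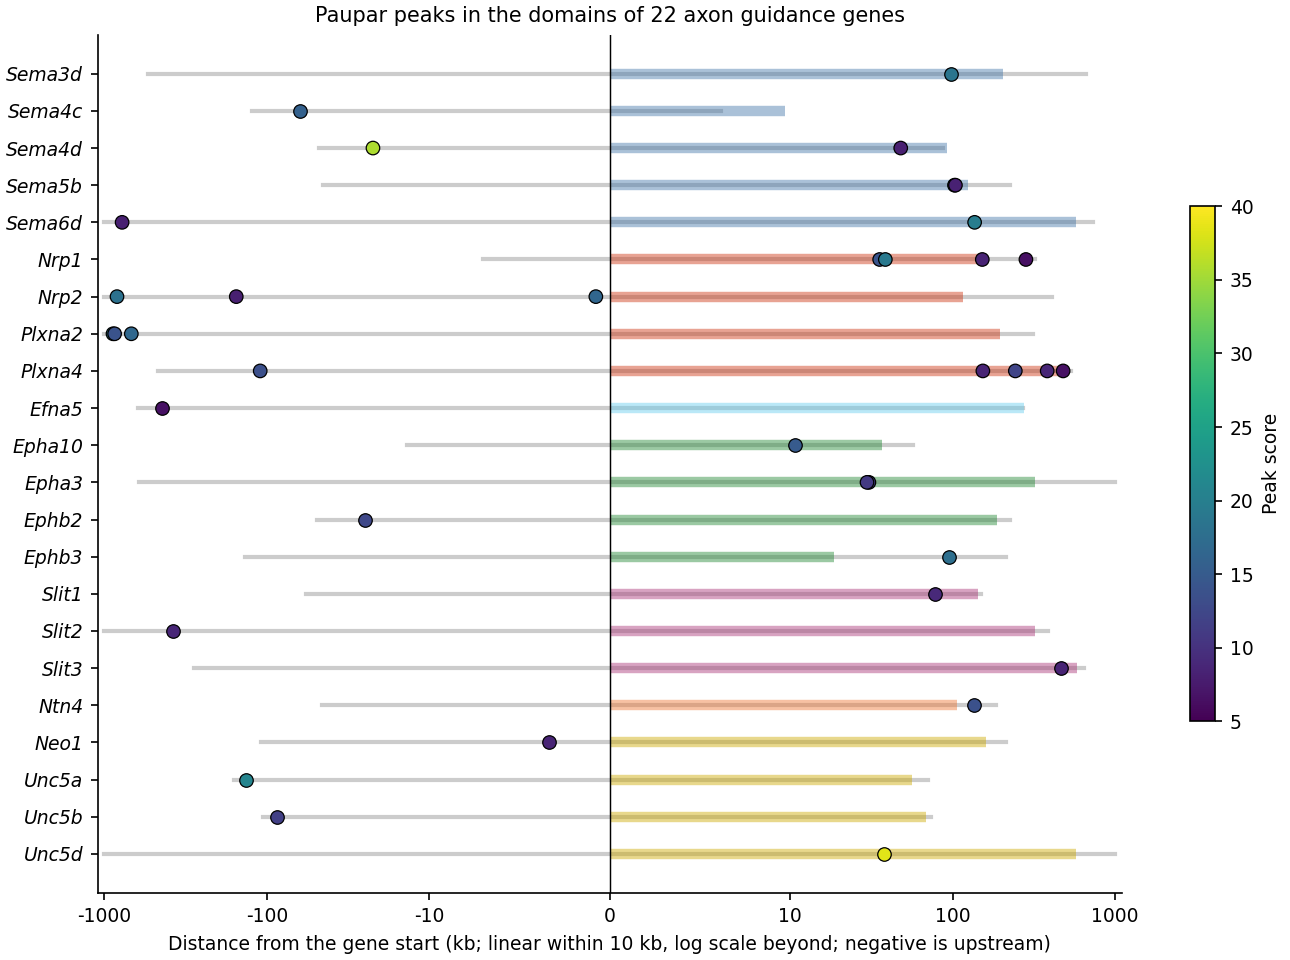
Position of each of the 37 peaks relative to the start of the gene (kb, linear within 10 kb and log scale beyond; negative is upstream) for the 22 genes with a peak. Grey lines are regulatory domains, coloured bars gene bodies, and circles peaks coloured by score. Peaks lie on both sides of the start, 16 upstream and 21 downstream, and only those of *Nrp2* and *Neo1* are within 5 kb.

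Eph receptors held 5 peaks at 4 of 14 genes, 28.6% beside 16.4% of all genes. Their density was 0.459 per Mb (0.149 to 1.07), beside 1.13 for all genes, and their domains had a median of 312 kb. *Epha3* held both of its peaks in 1 intron region, at 29.7 and 30.55 kb, 292 bp apart, with scores of 10.95 and 11.62. *Epha10* held 1 of the 3 widest peaks, 10.8 kb into the gene (score 14.88). *Ephb2* held a peak 24.9 kb upstream (12.53) and *Ephb3* a peak 94.9 kb downstream (17.64), both intergenic. The long domains of *Epha4*, *Epha5*, *Epha6* and *Epha7* held 0 peaks in 7.47 Mb, which allows up to 0.402 per Mb. Of these 4 domains 3 have under 40% GC, the band in which long domains of all genes held 0.388 per Mb. The domain of *Epha3*, whose peaks were both simple repeats as described below, has 37.4% GC. *Epha1*, *Epha2*, *Epha8*, *Ephb1*, *Ephb4* and *Ephb6* also had none. Ephrins, their ligands, held 1 peak among 9 entries, 443 kb upstream of *Efna5* in an intron of *Fbxl17*, with a score of 6.63.

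All 3 slits held a peak and none of the 4 Robo receptors did, beside 16.4% of all genes. The peaks of *Slit1*, *Slit2* and *Slit3* lay 77.8 kb downstream, 379 kb upstream and 468 kb downstream of the start, with scores of 9.06, 8.81 and 8.41, all in the lower part of the list. The nearest start was that of *AI606181* at 72467 bp for the *Slit1* peak and of *Pank3* at 179763 bp for the *Slit3* peak. *Robo1* and *Robo2*, whose domains sum to 3.75 Mb, held 0, which allows up to 0.800 peaks per Mb, and both domains have under 40% GC, where long domains of all genes held 0.388 per Mb. *Robo3* and *Robo4* have short domains of 81.4 and 63.8 kb. The slits, with domains of 207 to 1384 kb, held 1.19 per Mb (0.246 to 3.48), beside 1.13 for all genes. The domain of *Slit2*, which held a peak, has 37.3% GC. The difference between slits and Robo receptors was not tested.

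Among netrin receptors 4 of 6 held a peak, beside 16.4% of all genes. Their domains were long, with a median of 636 kb. They held 0.704 peaks per Mb (0.192 to 1.80), beside 1.13 for all genes. *Unc5d* had the highest-scoring peak of the set, 38.45 and rank 137 of 2849, in an intron 37.65 kb into the gene. *Unc5a* had the widest, 1777 bp with a score of 20.89, intergenic and 135 kb upstream, where the nearest start was that of *Tspan17* at 24985 bp. *Unc5b* had a peak of 11.61 at 86.3 kb upstream, nearer to the start of *Pldi* at 20296 bp. *Neo1*, encoding neogenin, had a peak of 245 bp and score 8.51 at 3.37 kb upstream. *Dcc* and *Unc5c* had none. Their domains, 2000 and 951 kb, have 38.2 and 38.3% GC, and that of *Unc5d*, which held a peak, has 39.1%. Among the 7 netrin entries only *Ntn4* held a peak, 135 kb downstream (13.73), nearer to the start of *Usp44* at 55707 bp. The *Neo1* peak is shown whole as the other one close to a start, with capitals on an 11 bp PAX6 paired-domain match on the minus strand with 2 mismatches.
Neo1 peak, chr9:58887499-58887743, mm9, + strand: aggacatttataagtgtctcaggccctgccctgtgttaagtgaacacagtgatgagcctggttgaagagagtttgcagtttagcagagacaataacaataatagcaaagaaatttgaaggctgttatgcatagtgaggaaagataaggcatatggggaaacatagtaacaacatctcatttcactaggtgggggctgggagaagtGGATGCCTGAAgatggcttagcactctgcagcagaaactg

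Ligands and receptors, each pooled over families, were close in density, 0.920 per Mb (0.490 to 1.57) for 39 ligand entries and 0.924 per Mb (0.592 to 1.38) for 35 receptors. Of the 24 receptor peaks, 15 lay at *Nrp1*, *Nrp2*, *Plxna2* and *Plxna4*. Eph receptors held 0.459 per Mb, netrin receptors 0.704 and Robo receptors 0. By number of genes, 10 ligands (25.6%) and 12 receptors (34.3%) held a peak, beside 16.4% of all genes. Their domains had medians of 130 and 329 kb, beside 89.4 kb for all genes.

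Most peaks were far from the member's start. Of the 37, 2 lay within 5 kb, 9 at 5 to 50 kb, 14 at 50 to 200 kb and 12 beyond 200 kb. The median distance from a member's start to its nearest peak was 90.6 kb (768 to 683001 bp), beside 44.3 kb for all genes with a peak. The 95% interval of the members' median, 29.7 to 135 kb, includes that value, and in the longest class of domain length the medians were 103 kb for members and 99.7 kb for all genes. The members' median was 35.6 kb with domains extended by at most 100 kb, 37.65 kb with peaks given to their nearest start only, and 33.7 kb with domains bounded by genes of all biotypes. The median over all genes was not computed under these settings, so these values cannot be set against 44.3 kb. In 16 cases the peak lay in an intron of the member, in 4 in another protein-coding gene, in 17 between genes, and in 0 in an exon of the member. Over all peaks 43.5% lay in introns, 3.69% in exons and 52.9% between genes. Gene bodies took 54.1% of member peaks, beside 47.1% of all peaks. The nearest gene start belonged to the member for 21 peaks and to another gene for 16, and 33 of the 37 also lay in the domain of another gene, so the list cannot say which gene a peak belongs to.

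The median score and width of the member peaks were close to those of the whole list. The quartiles of score were 8.43 and 17.64 for member peaks, beside 9.49 and 18.86 for all peaks. The median score was 12.53 beside 12.69 for all peaks, and 23 of 37 scored 10 or more, 62.2% beside 70.7%. The highest, 38.45, was well under the highest of the list, 305.37. Of the 37 member peaks, 3 (*Unc5d*, *Sema4d* and *Sema5b*) ranked in the top 500 of all 2849 peaks. This is a smaller share than over all peaks, and the difference was not tested. The median width was 563 bp (171 to 1777 bp) beside 556 bp.

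**Figure D4:**
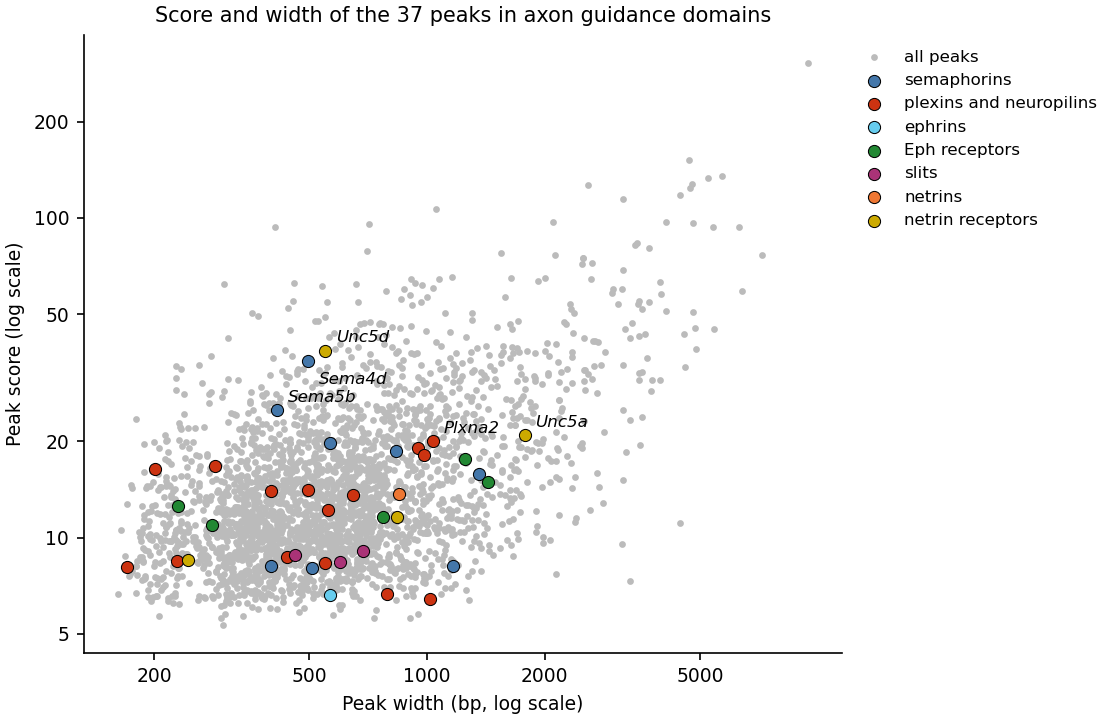
Score against width (bp) of all 2849 peaks (grey) and of the 37 peaks in axon guidance domains, coloured by family, both axes on a log scale. Members spread through the body of the list, and *Unc5d* (38.45), *Sema4d* (35.76) and *Sema5b* (25.09) are the highest.

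Of the sequences, 4 of the 37 peaks were almost pure simple repeats: both peaks of *Epha3*, that of *Sema3d*, and the stronger peak of *Sema5b*. Only 3.67 to 7.61% of their 6-mers were distinct, beside 65.6 to 97.4% in the other 33 and a median of 86.8% over all peaks. Their base repeated 3 positions on at 76.5 to 88.5% of positions, beside a median of 26.7%, and their GC content was 65.2 to 66.2%. How unusual this share is depends on the limit used. Fewer than 60% distinct 6-mers, the limit set first, holds for 10.8% of member peaks and 9.9% of all peaks, whereas fewer than 20%, a limit added after these values were seen, holds for the same 10.8% and for 1.47% of all peaks. The study kept only reads with 1 best position in the genome, and the part of read mapping in these peaks was not tested. Without them *Epha3* and *Sema3d* have no peak. The whole *Epha3* peak nearer the start and the central 150 bp of the *Sema3d* peak are shown for their repeat, with AGCAGG in capitals. The first capitals of the *Sema3d* stretch belong to a copy that the left edge cuts.
Epha3 peak, chr16:63834112-63834393, mm9, + strand: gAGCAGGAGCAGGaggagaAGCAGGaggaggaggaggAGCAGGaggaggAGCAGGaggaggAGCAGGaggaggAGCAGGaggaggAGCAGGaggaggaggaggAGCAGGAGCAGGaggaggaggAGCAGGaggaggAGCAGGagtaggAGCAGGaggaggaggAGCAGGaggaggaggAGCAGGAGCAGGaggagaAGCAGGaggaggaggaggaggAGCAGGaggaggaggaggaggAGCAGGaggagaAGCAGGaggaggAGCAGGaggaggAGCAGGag
Sema3d peak centre, chr5:12481457-12481606, mm9, + strand: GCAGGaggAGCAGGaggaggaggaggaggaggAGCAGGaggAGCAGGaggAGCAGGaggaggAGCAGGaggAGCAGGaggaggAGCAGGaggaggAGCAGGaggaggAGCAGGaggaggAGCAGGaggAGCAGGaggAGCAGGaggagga

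AGCAGG or its complement CCTGCT occurred 22 to 76 times in each of these 4 peaks and covered 31.9 to 54.7% of their length. A further peak, that of *Plxna4* 154 kb downstream, held 8 copies. In the whole list 7.06% of peaks held 5 or more. Among the peaks of the list that fall under the limit on distinct 6-mers set first, 45.4% held 5 or more. Many copies were thus common among peaks of simple sequence in the whole list.

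**Figure D5:**
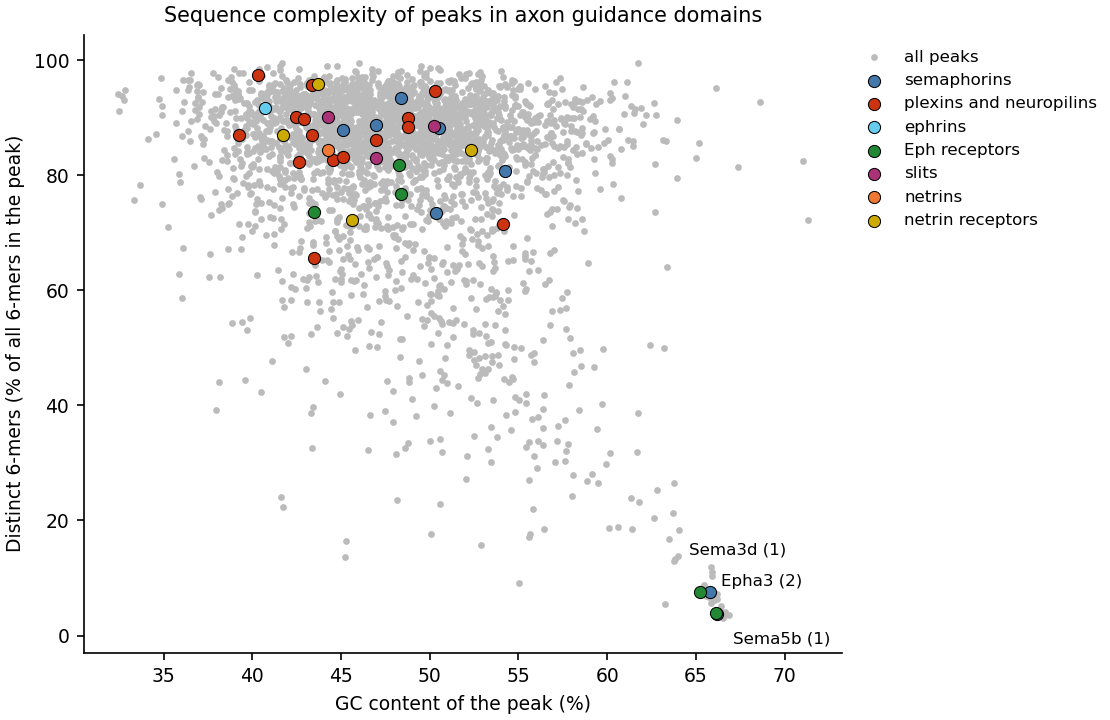
Distinct 6-mers (percent of all 6-mers in the peak) against GC content (percent) of all 2849 peaks (grey) and of the 37 peaks in axon guidance domains, coloured by family. The 4 labelled peaks, of *Epha3* (2), *Sema3d* and *Sema5b*, sit at 3.67 to 7.61%, and the other 33 at 65.6% or above.

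Exact matches of the peaks to the capture oligonucleotides were counted. The 4 *Paupar* capture oligonucleotides are shown because the matches below refer to them.
PauparCHART254, chr2:105501224-105501247, + strand: ggcttaagtccacccctggattcg
PauparCHART428, chr2:105501050-105501073, + strand: gcctggaactagatcaaggcagag
PauparCHART2041, chr2:105499437-105499460, + strand: ctctcagaaactgcgatacaaaag
PauparCHART2067, chr2:105499411-105499434, + strand: gaggcctagtcaaaatatctccac

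A match of at least 10 nt on either strand was present in 6 of 37 member peaks, 16.2% (7.65 to 31.1%), beside 24.6% of all peaks. In regions of equal size on both sides the shares were 4.05% for members and 10.3% for all peaks. The LacZ oligonucleotide, 1 sequence beside 4, matched 0 member peaks, 0.281% of all peaks and 0.386% of the regions beside all peaks. Single *Paupar* oligonucleotides matched 5.55 to 8.21% of all peaks. Peaks were called against the LacZ pull-downs, so the LacZ share is not an independent control. No member match was longer than 10 nt. The matching peaks ran from the highest score of the set (*Unc5d*, 38.45) to the lowest (*Nrp1*, 6.44). The matches are shown in capitals with 10 bases on each side, on the + strand of mm9.
Unc5d, PauparCHART2041, chr8:30292366-30292395: ctgggttaaaTCTCAGAAACaagggaaagg
Nrp1, PauparCHART254, chr8:130921391-130921420: gccaggcacaGAATCCAGGGtctattgcag
Nrp1, PauparCHART254, chr8:131165917-131165946: ttgcacaaagCCCTGGATTCcattctcagc
Nrp1, PauparCHART2067, chr8:131166292-131166321: ccaggctgatGAGATATTTTaggaattagg
Nrp2, PauparCHART2067, chr1:61912764-61912793: aggttctgatGATATTTTGAattacctcag
Plxna4, PauparCHART254, chr6:32058982-32059011: gatgggcaagAGGGGTGGACagttagaggg
Sema4d, PauparCHART428, chr13:51911181-51911210: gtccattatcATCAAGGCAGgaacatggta
Sema4d, PauparCHART2067, chr13:51911394-51911423: ctgggccaaaCCTAGTCAAAtcatcacacc

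Other sequence features were counted beside all peaks on both strands. CACCCC occurred in 13 of 37 member peaks, 35.1% beside 52.8%, and ATCATC in 13, 35.1% beside 30.2%. The octamer ATGCAAAT occurred in 1, that of *Ephb3*, 2.70% beside 2.91%. A PAX6 paired-domain match with at most 2 mismatches occurred in 10, 27.0% beside 28.2%, each of them with 2 mismatches. Member peaks held a median of 3 CpG beside 6, and 5 held none, 13.5% beside 5.02%. Such matches describe the sequence and do not show binding.

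Other genes of the pathway, a list of 79 symbols for adaptors, kinases, cytoskeletal regulators and further cues, of which 78 were found as 80 entries, held a peak at 26 entries, 32.5% (23.2 to 43.4%), beside 16.4% of all genes, and 1.26 peaks per Mb (0.882 to 1.74). Their domains were long too, with a median of 251 kb. In the longest class of domain length 20 of 44 did, beside 17 of 38 members and 33.7% of all genes. Those nearest to a start are named here. *Flrt3*, an UNC5 and Robo partner, had one 95 bp from 1 of its 2 annotated starts. *Srgap2*, which acts downstream of slit and Robo, had one at 415 bp, the growth cone gene *Gap43* at 1623 bp, the GTPase gene *Rac1* at 1688 bp, *Wnt5a* at 3043 bp, and *Rgmb*, a ligand of neogenin, at 3662 bp.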

How the data were processed

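The authors mapped paired-end CHART-seq reads of N2A cells to mm9 with Bowtie, where only uniquely placed reads were retained. MACS2 was then run on the *Paupar* pull-downs with LacZ and with input DNA as the control. They deposited 1 list of the peaks found in both comparisons, with a score per peak. The study's methods state a filter on the q value of the peak calls, and the lowest deposited score is 5.34. The file does not name the statistic of its score, and how the replicates were joined is not given in the sources used here. Per-library values and sequencing depth were not analysed here.

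Domains were computed from the GENCODE annotation of NCBIM37 with Python 3.11.15, pandas 2.3.3 and pysam 0.24.0, and intervals with scipy 1.17.1. The assignment was tested on simulated data. Symbols beginning with *Unc5* were read as *Unc5a* to *Unc5d*, since the literal reading would take *Unc50*, which is unrelated. Members are described beside all genes, with no test, since the list holds no replicates. Genes named are those with a peak near the start, 3 or more peaks, one of the 5 highest scores or one of the 3 widest peaks, and the other members with a peak are given briefly. Members, lists and motifs were chosen with earlier results of these data known. Of the limits on distinct 6-mers, 60% was set first and 20% was added after the members' values were seen. Oligonucleotide sequences come from the study's supplementary list.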

Additional observations from a re-analysis of the deposited data

How the results depend on the processing

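No paired analysis was possible because the deposited list holds no values per library, and for the same reason leaving out a replicate was not possible. Under the alternatives, only the share of genes with a peak was computed over all genes. The members' densities, distances, scores and match shares therefore have no value for all genes or all peaks beside them. In the main setting all genes had 2.02 peaks per Mb in the shortest class of domain length and 0.936 in the longest. Values that moved beyond their counting interval, or a count by over 1.5 times, are as follows. With domains extended by at most 100 kb, 13 members held 16 peaks (1.66 per Mb), beside 11.8% of all genes. In the basal domain alone, 2 members held 2 peaks (4.50 per Mb, median distance 2.07 kb), beside 1.71%. With each peak given to its nearest start, 23 peaks went to 15 members (a count of members within 1.5 times), beside 9.95% of all genes. Bounding domains by genes of all biotypes left 12 members and 15 peaks, beside 11.6%. Peaks scoring 10 or more left 23 (0.574 per Mb, median score 16.38) at 17 members (a count of members within 1.5 times), beside 12.6% of all genes. Peaks of at most 1 kb gave 14.2% of all genes. Removing peaks under 60% distinct 6-mers gave 15.3% of all genes. Within those bounds, the 20% limit gave 16.3%, and either limit left 20 members with 33 peaks. The share of member peaks with an oligonucleotide match was 54.1% at 9 nt, 0% at 11 nt and 5.41% in the central 200 bp. It thus depends on the length asked for and on the stretch searched. At 10 nt in whole peaks, 16.2% of member peaks and 24.6% of all peaks matched. Alternatives on the reading of *Unc5*, on double entries and on simple sequence were added after the data were seen. The number of peaks limits every comparison between families.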
